A study of Homo sapiens with 6 samples.

Results

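The splicing factor and spliceosome genes described here are 125 protein-coding genes, of 22794 genes listed in the deposited tables, that were chosen by name alone. Their symbols start with SRSF, HNRNP, SNRP, SF3A, SF3B, U2AF, PRPF, LSM, RBM, CLK, SRPK, CELF or MBNL followed by a number or letter code. The name rule uses no measured value, but the gene set was proposed with earlier results of these data known. They were measured in CAL-51, an established human breast carcinoma cell line, as poly(A) RNA of p27-positive cells (3 libraries) and p27-negative cells (3 libraries). Both groups are CAL-51 cells with no other genotype or treatment named. They were transfected with a p27-mVenus plasmid and then sorted by p27 signal. p27, the product of CDKN1B, binds cyclin-dependent kinases and keeps cells out of S phase. A p27 signal read from this reporter requires the plasmid, so effects of transfection and effects of p27 state cannot be told apart in any value below. The labels name a single line and say nothing of separate cultures. The p-values therefore cover the spread among these libraries, and that spread may be technical.

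Splicing removes introns from new transcripts and is carried out by the spliceosome, a machine of small nuclear RNAs and proteins that is built anew on each intron. The U1 particle reads the 5′ splice site, U2AF and the U2 particle with its SF3 proteins read the 3′ splice site and branch point, and the U4/U6.U5 tri-snRNP with its PRPF proteins brings the catalytic centre. SR proteins mostly favour the use of exons they bind and hnRNP proteins often oppose it, while CLK and SRPK kinases phosphorylate the SR proteins and thereby set where they are and what they bind. Many of these genes control their own output through alternative exons that lead to decay of the transcript or through introns retained in the nucleus. Counts per gene, as used here, do not separate such forms from productive mRNA.

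The libraries held 22216934 to 28609257 reads assigned to genes. A normalized count is the number of reads of a gene divided by the size factor of its library. FPKM sets fragments against a length per gene and library depth. Those lengths are not given here, and for HNRNPU the reads and FPKM imply a length near the span of the gene. Levels and ratios between genes therefore depend on the lengths used, while the relative change of a ratio between groups does not. No library was a copy of another, since the chi-square per degree of freedom was 83.0 to 104 for the 9 pairs across groups and 5.14 to 6.27 for the 6 pairs within groups. The groups separated along the first principal component (55.2% of the variance). The second (14.4%) set p27-negative replicate 3 apart, and without that library 12 splicing genes were higher and 88 lower. CDKN1B mRNA, which encodes p27, was lower in p27-positive libraries (1295 ± 75.4 normalized counts) than in p27-negative libraries (1659 ± 153, SD, n = 3 each), with an adjusted p of 6.8e-05. The cells were transfected with a p27-mVenus plasmid before the sort, so this count need not follow the sorted signal. All 14 tested cell cycle genes were lower in p27-positive libraries, with a median log2 fold change of -1.72 and a summed level of 474 to 481 FPKM, against 1124 to 1144 FPKM in p27-negative libraries. Of 14 mammary epithelial and carcinoma markers, 8 were tested. KRT8, KRT18, KRT19 and ERBB2 were higher and EPCAM, VIM and TFAP2A lower in p27-positive libraries, with a summed level of 1521 to 1558 FPKM there and 867 to 891 FPKM in p27-negative libraries. The defining markers CDH1, GATA3 and ESR1 were below the filter, and CDH1 had 0, 7 and 8 reads in p27-positive libraries and 0 in each p27-negative library. Of 9 leukocyte markers, 2 were tested, of which ITGAM was higher and PTPRC was not called, and the list summed to 0.840 to 1.34 FPKM in p27-positive libraries and 0.368 to 0.644 FPKM in p27-negative libraries. Of 10 endothelial and stromal markers, 6 were tested and all 6 were higher in p27-positive libraries, among them COL3A1, VWF and ACTA2, with a summed level of 59.8 to 64.1 FPKM there, against 25.4 to 25.8 FPKM in p27-negative libraries, while PECAM1 was below the filter. These marker and cell cycle values move with the groups in the same libraries as every splicing gene below, and their part in the splicing results was not tested. Fewer cells of a type and less RNA per cell cannot be told apart in these bulk libraries.

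Splicing genes were mostly lower in p27-positive than in p27-negative cells. Of the 125 genes, 120 passed the filter of a mean of at least 10 normalized counts over the 6 libraries, and 5 did not. By limma with Benjamini-Hochberg adjustment over all 15950 tested genes, 12 of the 120 were higher, 91 were lower and 17 were not called at an adjusted p under 0.05. Over all tested genes, 52.6% were called in either direction, 25.5% higher and 27.1% lower. Over the 12554 tested protein-coding genes, 61.5% were called, 28.3% higher and 33.2% lower. The median log2 fold change (p27-positive over p27-negative, computed from log2(normalized count + 1)) was -0.42 over the 120 genes, beside 0.03 over all tested genes and -0.01 over tested protein-coding genes. The groups did not overlap for 103 of the 120 genes, beside 57.7% of all tested genes and 65.5% of tested protein-coding genes.

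The changes were moderate. Among the 120 tested genes, log2 fold changes ranged from -1.12 for U2AF1 to 1.15 for RBM43, and 5 of them passed a 2-fold difference. CLK1, CLK4 and RBM43 were higher by that margin, and U2AF1 and SNRPD1 were lower. Together the 125 genes took 1.78% ± 0.00909 of assigned reads in p27-positive libraries and 2.34% ± 0.0165 in p27-negative libraries (SD, n = 3 each). The share was 1.77% to 1.78% in the p27-positive libraries and 2.33% to 2.36% in the p27-negative libraries, so the groups did not overlap. This share is free of the size factors, but it is set against the library total and so moves with the reads of all other genes. The median of all genes moved up by 0.13 when libraries were scaled to their totals and by 0.11 with upper-quartile rescaling, and changes under these are read against that shift. Under the library total, 17 splicing genes were higher and 81 lower, and over all tested genes 5345 were higher and 3115 lower, against 4067 and 4318 with the deposited scaling. The splicing median minus the protein-coding median was -0.41 with the deposited scaling, -0.30 under quantile normalization and -0.36 in the FPKM table.

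The difference varied with how strongly a gene was read. A split at a mean of 1000 normalized counts, chosen after the values were seen, left 92 splicing genes above it, of which 7 were higher and 80 lower, with a median log2 fold change of -0.47. Protein-coding genes above the same level had 23.7% higher, 52.9% lower and a median of -0.16. Of the 28 tested splicing genes under that level, 5 were higher and 11 lower, with a median of -0.09. Protein-coding genes under it had 31.9% higher, 17.8% lower and a median of 0.15. High read counts therefore went with lower values in p27-positive cells in both sets, and the splicing genes had lower medians than protein-coding genes in both ranges.

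**Figure D1:**
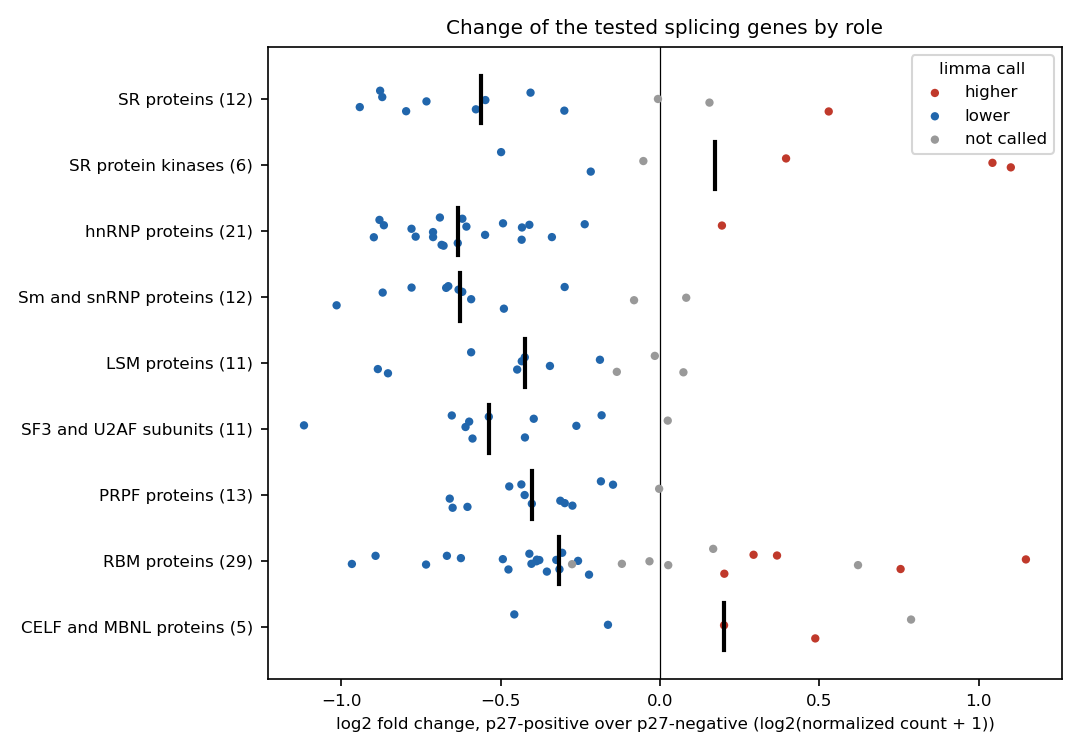
Log2 fold change (x axis, p27-positive over p27-negative, log2(normalized count + 1) scale) of the 120 tested splicing genes, 1 point per gene, in rows by role, coloured by limma call, with the median of each role marked. Most points of the hnRNP, Sm, SF3 and PRPF rows lie left of 0, while CLK1, CLK4 and RBM43 lie near 1 on the right.

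Promoter sequence was compared because most of these genes moved in 1 direction. RefSeq promoters of build GRCh38.p14, read over the 250 bases before the annotated start, were found for 111 of the 125 genes, and 8 short motifs were searched on both strands. The motif with the widest gap between lower splicing genes and tested protein-coding promoters was CGGAAG, 1 form of the sites bound by ETS-family factors. It was found in 38 of 80 promoters of splicing genes called lower (47.5%) and in 1 of 11 of those called higher, that of CELF2. The motif was present in 21.7% of 15842 protein-coding promoters, in 28.1% of the 10226 that belong to tested genes, in 33.3% of those called lower and in 22.4% of those called higher. Restricting to the 73 splicing genes whose RefSeq start lay within 200 bases of the start listed in the deposited tables left 25 of 55 lower genes with the motif (45.5%) and 0 of 6 higher genes. These are part of the genes in which the motif was picked, and other protein-coding promoters were not restricted in this way. CCAAT, the core of sites bound by NF-Y, was in 47.5% of the lower splicing genes, 35.2% of tested and 34.5% of all protein-coding promoters. GGGCGG, whose last 3 letters can be the first 3 of CGGAAG, was in 61.3% of the lower splicing genes, 68.1% of tested and 56.0% of all protein-coding promoters. CACGTG, TGACGTCA, the NRF1 palindrome, AAGATGGCG and the pair TTTCGCGC or TTTGGCGC were each in at most 8 of the 80 lower splicing genes. Of all protein-coding promoters, 7.84% held CACGTG, 2.32% TGACGTCA, 1.48% the NRF1 palindrome, 0.751% AAGATGGCG and 1.40% either of that pair. The median GC content was 61.6% in splicing promoters and 62.4% in all protein-coding promoters. These matches describe letters in a fixed window and say nothing of binding.
The 6 sequences below are the 120 bases just before the RefSeq start, 5′ to 3′ on the strand of the gene. They set 4 lower genes that hold the motif beside HNRNPH2 and CLK1, which were higher and hold no exact match in this window. The genes were picked as examples, and other forms of ETS-family sites were not searched. Capitals mark CGGAAG or its reverse complement CTTCCG. They come from chr17:58007247-58007366 (minus strand), chr20:2470790-2470909 (minus), chr1:37990023-37990142 (minus), chr5:179634785-179634904 (minus), chrX:101408102-101408221 (plus) and chr2:200864659-200864778 (minus).
SRSF1: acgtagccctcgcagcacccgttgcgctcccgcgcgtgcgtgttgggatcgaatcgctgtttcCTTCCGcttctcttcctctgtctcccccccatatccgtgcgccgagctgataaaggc
SNRPB: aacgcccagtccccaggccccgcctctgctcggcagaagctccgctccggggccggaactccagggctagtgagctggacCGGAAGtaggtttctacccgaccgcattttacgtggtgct
SF3A3: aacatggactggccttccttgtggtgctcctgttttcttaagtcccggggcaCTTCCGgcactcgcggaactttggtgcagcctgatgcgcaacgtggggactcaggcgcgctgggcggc
HNRNPH1: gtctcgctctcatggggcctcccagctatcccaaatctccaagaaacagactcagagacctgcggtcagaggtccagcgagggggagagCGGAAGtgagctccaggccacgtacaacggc
HNRNPH2: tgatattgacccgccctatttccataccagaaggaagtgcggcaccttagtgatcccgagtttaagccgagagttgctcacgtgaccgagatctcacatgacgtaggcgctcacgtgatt
CLK1: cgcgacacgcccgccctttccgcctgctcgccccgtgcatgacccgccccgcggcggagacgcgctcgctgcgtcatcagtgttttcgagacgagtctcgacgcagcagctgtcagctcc
The motif begins 57 bases before the start in SRSF1, 40 in SNRPB, 68 in SF3A3 and 31 in HNRNPH1.

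SR proteins carry RNA recognition motifs and a tail rich in arginine and serine, and bind exonic enhancers. Of the 12 SRSF genes, 9 were lower, SRSF12 was higher and SRSF8 and SRSF11 were not called, with a median log2 fold change of -0.56. Their reads made up 0.206% ± 0.00504 of assigned reads in p27-positive libraries and 0.290% ± 0.00456 in p27-negative libraries. SRSF3 (chr6:36594353-36605600, build hg38), the smallest SR protein and an adaptor for mRNA export, had 9067, 8892 and 8591 normalized counts in p27-positive libraries, against 17641, 16843 and 16531 in p27-negative libraries. It was 1.92-fold lower in p27-positive cells, the largest decrease among SR genes, with a log2 fold change of -0.94 ± 0.03 (SE) and an adjusted p of 4.9e-25. SRSF2, which acts in exon definition and is mutated in myeloid neoplasms, had 4125, 4281 and 4205 normalized counts in p27-positive libraries, against 7848, 7878 and 7460.0 in p27-negative libraries. All 3 p27-positive libraries lay below all p27-negative ones (-0.88 ± 0.04, adjusted p = 3.9e-21). SRSF7, a zinc knuckle SR protein that also acts in export, had 4338, 4098 and 4141 normalized counts in p27-positive libraries, against 8108, 7243 and 7677 in p27-negative libraries. Its difference was close to that of SRSF2 at -0.87 ± 0.04 (adjusted p = 3.2e-20). SRSF1, the founding SR protein and a known oncoprotein in breast, had 3039.6, 3150.3 and 2846 normalized counts in p27-positive libraries, against 5346, 5221 and 5118 in p27-negative libraries. It was 1.74-fold lower without overlap (-0.80 ± 0.05, adjusted p = 1e-17). SRSF4 (-0.73), SRSF6 (-0.58), SRSF10 (-0.55), SRSF9 (-0.41) and SRSF5 (-0.30) were lower by smaller margins.

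The 3 remaining SR genes did not share that direction. SRSF12, a low-abundance SR protein known to antagonise others, had 265, 231 and 211 normalized counts in p27-positive libraries, against 164, 169 and 154 in p27-negative libraries. The groups did not overlap and the log2 fold change was 0.53 ± 0.18 (adjusted p = 0.011), but the adjusted p was 0.073 without p27-positive replicate 1 and 0.19 under quantile normalization. SRSF11 had 6254, 6316 and 6080.3 normalized counts in p27-positive libraries, against 6353, 6100.4 and 6281 in p27-negative libraries, and the groups overlapped (-0.01 ± 0.04, adjusted p = 0.91). Under the 4 other scalings tried (quantile, upper-quartile, library total and the FPKM table) SRSF11 was called higher, by 0.11 to 0.17 on the log2 scale. SRSF8, a retrogene-derived SR protein, was at 0.16 ± 0.07 with an adjusted p of 0.065. By the lengths used for FPKM, SRSF2 was the highest SR gene at 60.8 ± 1.63 FPKM in p27-positive and 102 ± 2.83 FPKM in p27-negative libraries. SRSF3 followed at 53.5 ± 1.32 FPKM in p27-positive and 93.9 ± 3.03 FPKM in p27-negative libraries. The FPKM ratio of SRSF11 to SRSF3 was 0.579, 0.597 and 0.595 in p27-positive libraries, against 0.303, 0.304 and 0.319 in p27-negative libraries.

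**Figure D2:**
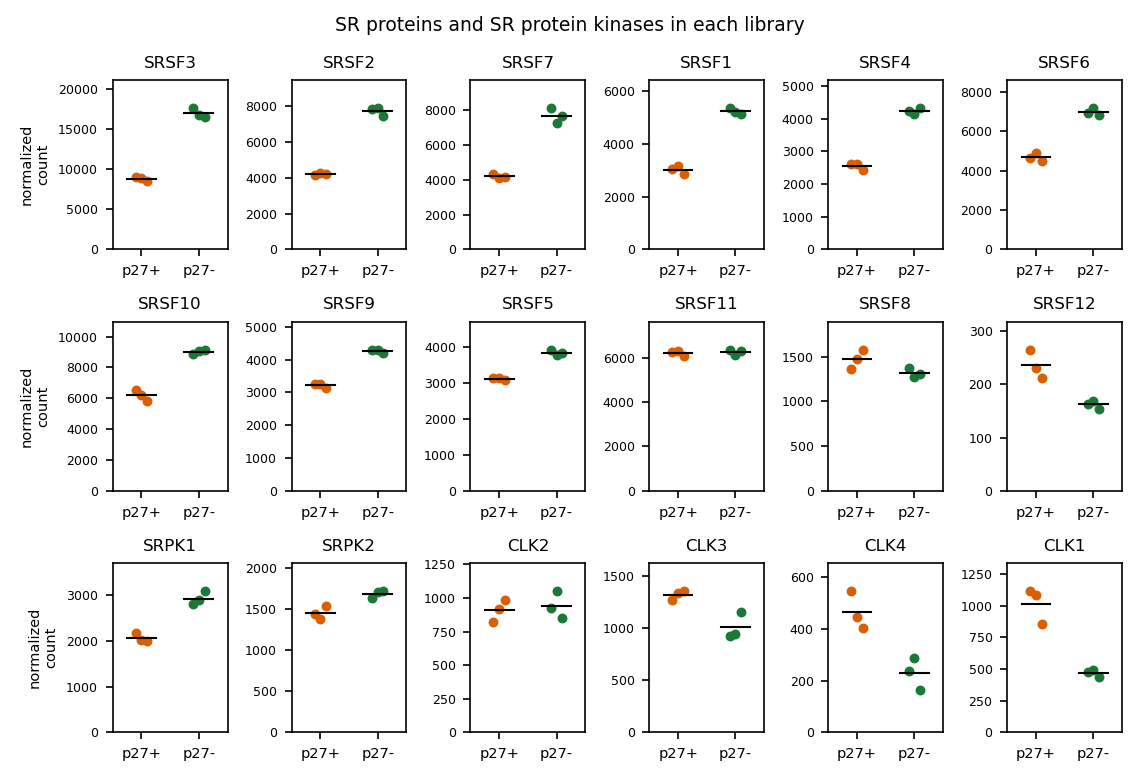
Normalized counts (y axis, from 0) of the 12 SR protein genes and the 6 SR protein kinase genes, 1 panel per gene, with each library as a point and the group mean as a line, p27-positive left and p27-negative right. SRSF1, SRSF2, SRSF3 and SRSF7 are lower in every p27-positive library, SRSF11 overlaps, and CLK1 and CLK4 are higher in every p27-positive library.

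Among the kinases of SR proteins, CLK1, CLK3 and CLK4 were higher, SRPK1 and SRPK2 were lower and CLK2 was not called, so that the median was 0.17. CLK1 (chr2:200853009-200864691), the nuclear kinase that releases SR proteins from speckles, had 1115, 1083 and 854 normalized counts in p27-positive libraries, against 478, 494 and 442 in p27-negative libraries. It was 2.14-fold higher in p27-positive cells, and its lowest p27-positive value was well above its highest p27-negative value (1.10 ± 0.10, adjusted p = 3.6e-12). CLK4, its closest relative, had 545, 445 and 405 normalized counts in p27-positive libraries, against 238, 288 and 162 in p27-negative libraries. The groups were again apart, and CLK4 was 2.06-fold higher (1.04 ± 0.16, adjusted p = 6.3e-07). CLK3 had 1270.3, 1340.1 and 1355 normalized counts in p27-positive libraries, against 925, 945 and 1159.8 in p27-negative libraries, which is 1.32-fold higher (0.40 ± 0.08, adjusted p = 7e-05). CLK2 overlapped between groups, at -0.05 ± 0.09 with an adjusted p of 0.66. Much of the RNA of CLK1 and CLK4 is known to be held in the nucleus with introns retained, and the counts per gene do not show which form was higher. Short RNA genes listed inside CLK1 and CLK4 on the same strand, a Y RNA and a 7SK pseudogene, could share reads with them.

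SRPK1, the mainly cytoplasmic kinase that readies SR proteins for nuclear import, had 2184, 2026 and 2004 normalized counts in p27-positive libraries, against 2811, 2883 and 3086 in p27-negative libraries. It was 1.41-fold lower in p27-positive cells (-0.50 ± 0.06, adjusted p = 8.7e-10), without overlap. SRPK2 was lower by a small margin (-0.22 ± 0.07, adjusted p = 0.0057), and lost its call under the 4 other scalings. The FPKM ratio of CLK1 to SRPK1 within a library was 0.668, 0.699 and 0.558 in p27-positive libraries, against 0.222, 0.224 and 0.187 in p27-negative libraries. Set against the SR protein SRSF1, the FPKM ratio of CLK1 was 0.415, 0.388 and 0.339 in p27-positive libraries, against 0.101, 0.107 and 0.0975 in p27-negative libraries. Neither ratio overlapped between the groups, but both pairs were picked after the values were seen, so this is not a separate result. Kinase genes as a group took 0.0311% ± 0.000353 of assigned reads in p27-positive libraries and 0.0286% ± 0.000890 in p27-negative libraries, and with the CELF and MBNL genes they were the only roles of the 9 whose share was higher in p27-positive libraries.

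**Figure D3:**
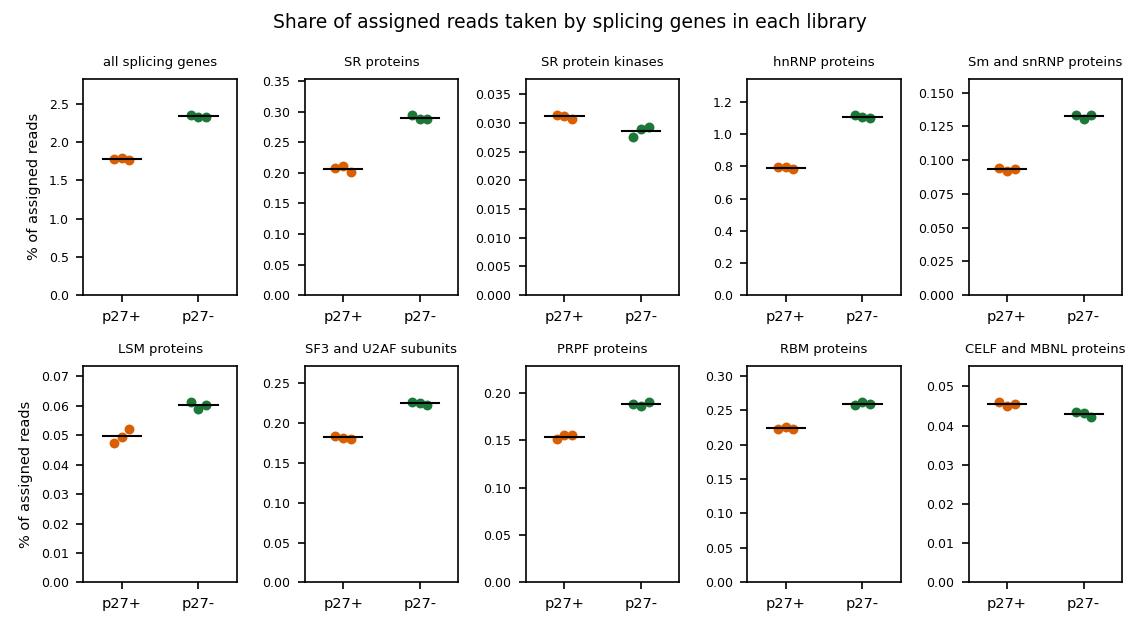
Percent of assigned reads (y axis, from 0) taken by all 125 splicing genes and by each role, 1 panel each, with every library as a point and the group mean as a line, p27-positive left and p27-negative right. The total is 1.77% to 1.78% in p27-positive libraries and 2.33% to 2.36% in p27-negative libraries, and the hnRNP genes take the largest part.

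The hnRNP proteins coat nascent transcripts and often repress exons. The family holds some of the most abundant splicing factors, and all 21 tested genes were called, 20 lower and 1 higher, with a median of -0.63. They took 0.792% ± 0.00603 of assigned reads in p27-positive libraries and 1.11% ± 0.0104 in p27-negative libraries. HNRNPD (chr4:82352498-82374503), also known as AUF1 for its binding to AU-rich elements of unstable mRNAs, had 6469, 6822 and 6938 normalized counts in p27-positive libraries, against 12653, 12746 and 12284 in p27-negative libraries. That was 1.86-fold lower, the largest decrease of the family (-0.90 ± 0.04, adjusted p = 2.7e-23). HNRNPA2B1, a core hnRNP that also reads methylated adenosine, had 25294, 24534 and 23508 normalized counts in p27-positive libraries, against 39761, 39763 and 37869.7 in p27-negative libraries. Its groups were well apart, at -0.68 ± 0.03 (adjusted p = 3.3e-23). HNRNPU, a scaffold attachment protein that links RNA and chromatin, had 14950.5, 14960.1 and 15074 normalized counts in p27-positive libraries, against 23728, 24709 and 24176 in p27-negative libraries. The difference was -0.69 ± 0.03, and every p27-positive library lay below every p27-negative one (adjusted p = 5.8e-23). HNRNPC, which binds uridine tracts and keeps Alu elements from being spliced in, had 12837, 12734 and 12721 normalized counts in p27-positive libraries, against 21148, 21414 and 20184 in p27-negative libraries. It was 1.64-fold lower (-0.71 ± 0.03, adjusted p = 1.8e-22). HNRNPA1, the best-studied exon repressor, had 26427, 26157 and 25837 normalized counts in p27-positive libraries, against 37770.0, 36351 and 36226 in p27-negative libraries. Its decrease was smaller at -0.49 ± 0.03 (adjusted p = 1e-19), and 16 listed HNRNPA1 pseudogenes make its count less certain.

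HNRNPH1 and HNRNPH2 encode near-identical proteins that bind runs of guanines, and they moved in opposite directions. HNRNPH2 (chrX:101408222-101414133) had 5181, 4887 and 4850.0 normalized counts in p27-positive libraries, against 4346, 4327 and 4359.6 in p27-negative libraries. It was 1.14-fold higher without overlap (0.19 ± 0.04, adjusted p = 0.00026), and no other gene of the family was higher. HNRNPH1 (chr5:179614178-179634784) had 10319.7, 10563 and 9718 normalized counts in p27-positive libraries, against 17706, 17239.6 and 17089 in p27-negative libraries. It was 1.70-fold lower (-0.77 ± 0.03, adjusted p = 3.3e-22). The FPKM ratio of HNRNPH2 to HNRNPH1 was 2.07, 1.91 and 2.06 in p27-positive libraries, against 1.01, 1.04 and 1.05 in p27-negative libraries, with means of 2.01 ± 0.0906 in p27-positive libraries and 1.03 ± 0.0200 in p27-negative libraries (SD, n = 3 each). The related HNRNPF (-0.61) and HNRNPH3 (-0.87) were lower. The other lower genes ran from -0.88 for HNRNPR through HNRNPDL (-0.78), HNRNPUL1 (-0.71), HNRNPAB (-0.69), HNRNPL (-0.63), HNRNPA3 (-0.62), HNRNPM (-0.55), HNRNPA0 (-0.43), HNRNPK (-0.43) and HNRNPUL2 (-0.34) to HNRNPLL (-0.24). HNRNPLL lost its call under the 4 other scalings. HNRNPA1L3, an HNRNPA1-like copy, was called lower (-0.41, adjusted p = 0.018) although its groups overlapped. Its adjusted p was 0.2 without p27-positive replicate 1, where the log2 fold change was -0.24, and 0.13 without p27-negative replicate 3, and the call was also lost under upper-quartile, library-total and FPKM scaling.

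The Sm proteins form the ring on which U1, U2, U4 and U5 RNAs are assembled, and the other SNRP genes encode particle-specific proteins. Of the 12 genes, 10 were lower and SNRPD3 and SNRPN were not called, with a median of -0.63. SNRPD1 (chr18:21612314-21633524), the Sm D1 subunit, had 2281, 2224 and 2198 normalized counts in p27-positive libraries, against 4717, 4363 and 4471 in p27-negative libraries. It was 2.02-fold lower (-1.01 ± 0.05, adjusted p = 2.4e-20). SNRPB, which encodes Sm B and regulates its own transcript through an alternative exon, had 4332, 4125 and 4116 normalized counts in p27-positive libraries, against 7316, 6996 and 7271 in p27-negative libraries. The groups did not overlap (-0.78 ± 0.04, adjusted p = 2.9e-19). The U1 proteins followed the same direction. SNRPA, the A protein of U1, had 1158, 1138 and 1156 normalized counts in p27-positive libraries, against 1998, 2142 and 2176 in p27-negative libraries, which gives a difference of -0.87 ± 0.07 (adjusted p = 1.2e-14). SNRPC, the C protein of U1, which contacts the 5′ splice site duplex, had 1843, 1792 and 1862 normalized counts in p27-positive libraries, against 2797, 3000.1 and 2664 in p27-negative libraries, at -0.62 ± 0.06 (adjusted p = 5.3e-12). SNRPA1, the U2 A′ protein, had 1356, 1335 and 1215 normalized counts in p27-positive libraries, against 2004, 1946 and 2100.4 in p27-negative libraries. It was 1.55-fold lower (-0.63 ± 0.07, adjusted p = 1.1e-10), and PCSK6 overlaps it on the same strand.

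SNRPG (-0.67), SNRPE (-0.66) and SNRPF (-0.59) were lower by similar amounts, SNRPB2, the U2 B″ protein, was at -0.49 and SNRPD2 was at -0.30. SNRPD3, the Sm D3 subunit, was at -0.08 ± 0.07 with an adjusted p of 0.38 and overlapping groups. The FPKM ratio of SNRPD3 to SNRPD1 was 0.662, 0.672 and 0.726 in p27-positive libraries, against 0.350, 0.397 and 0.333 in p27-negative libraries. SNRPN, the imprinted Sm B paralogue used in neurons, was barely read, with 77.4, 97.8 and 90.3 normalized counts in p27-positive libraries, against 89.9, 66.8 and 95.9 in p27-negative libraries. Its groups overlapped (0.08 ± 0.27, adjusted p = 0.83), and SNURF and SNHG14 share its strand and place. Per length, SNRPD2 was the highest Sm gene, with a mean of 89.0 FPKM in p27-positive and 99.98 FPKM in p27-negative libraries.

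LSM2 to LSM8 form the ring on U6 RNA, LSM1 replaces LSM8 in the cytoplasmic ring that acts in mRNA decay, and LSM10 and LSM11 belong to the U7 particle that processes histone mRNA. Of the 11 LSM genes, 8 were lower, none was higher and LSM1, LSM10 and LSM11 were not called, with a median of -0.42. LSM5 had 879, 901 and 899 normalized counts in p27-positive libraries, against 1773, 1495 and 1587 in p27-negative libraries, which is 1.81-fold lower (-0.85 ± 0.08, adjusted p = 1.3e-12). LSM6, with few reads, had 301, 309.8 and 405 normalized counts in p27-positive libraries, against 573, 632 and 659 in p27-negative libraries. It was the largest decrease of the family at -0.89 ± 0.12 (adjusted p = 7.1e-08). LSM4, the highest LSM gene per length, had 3633, 3762 and 3871 normalized counts in p27-positive libraries, against 5035, 4956 and 5123 in p27-negative libraries. All p27-positive libraries were lower (-0.42 ± 0.04, adjusted p = 1.4e-10). LSM2 had 1066, 1173 and 1214 normalized counts in p27-positive libraries, against 1563, 1426 and 1398 in p27-negative libraries, a smaller difference of -0.35 ± 0.07 (adjusted p = 0.00012). LSM3 (-0.45) and LSM8 (-0.43) were also lower. LSM12, a divergent LSM protein outside the rings, had 571, 654 and 725 normalized counts in p27-positive libraries, against 1017, 973 and 941 in p27-negative libraries. It was 1.51-fold lower (-0.59 ± 0.09, adjusted p = 8.5e-07).

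The U7 genes LSM10 (-0.02 ± 0.10, adjusted p = 0.9) and LSM11 (-0.14 ± 0.12, adjusted p = 0.36) and the decay gene LSM1 (0.07 ± 0.13, adjusted p = 0.68) missed the threshold, which does not show that they were equal between groups. LSM7 was called lower with overlapping groups (-0.19 ± 0.08, adjusted p = 0.037). Its adjusted p was 0.25 without p27-positive replicate 1, 0.098 without p27-positive replicate 2, 0.051 without p27-negative replicate 2 and 0.24 without p27-negative replicate 3, with a log2 fold change of -0.12 without either replicate 1 of p27-positive or replicate 3 of p27-negative cells. LSM7 also lost its call under the 4 other scalings, with DESeq2 (adjusted p = 0.076) and without the trended prior, and LSM8 lost it in the FPKM table.

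The SF3A and SF3B complexes make up the protein core of the U2 particle, and U2AF reads the 3′ splice site. Of the 11 genes, 10 were lower and SF3B5 was not called, with a median of -0.54. SF3B3, a large scaffold subunit, had 8005, 7738 and 7316 normalized counts in p27-positive libraries, against 11956, 11568 and 11380.1 in p27-negative libraries. It was 1.51-fold lower (-0.60 ± 0.04, adjusted p = 2.5e-17). The SF3A subunits, which bridge SF3B and the Sm ring, were close to it. SF3A3 had 2639, 2475 and 2534 normalized counts in p27-positive libraries, against 4002, 3906 and 3767 in p27-negative libraries, at -0.61 ± 0.05 (adjusted p = 1.9e-13). SF3A1 had 3157, 2993 and 3095 normalized counts in p27-positive libraries, against 4595, 4583 and 4245 in p27-negative libraries, at -0.54 ± 0.05 (adjusted p = 2e-12). SF3A2 was at -0.59 and SF3B4, which contacts RNA upstream of the branch point, at -0.65. SF3B2 had 5883, 5579 and 5639 normalized counts in p27-positive libraries, against 7586, 7636 and 7713 in p27-negative libraries, at -0.42 ± 0.04 (adjusted p = 3.5e-12). SF3B1 (chr2:197388515-197435079), the subunit that clamps the branch point and the most often mutated spliceosome gene in cancer, had 10348, 10223 and 10089 normalized counts in p27-positive libraries, against 12729, 12423 and 11647 in p27-negative libraries. Its difference was small at -0.26 ± 0.03 (adjusted p = 3.1e-08), and its call was lost under quantile normalization.

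U2AF1 (chr21:43092956-43107570), the subunit that reads the AG of the 3′ splice site, had the largest decrease of all splicing genes. It had 292, 227 and 300.4 normalized counts in p27-positive libraries, against 572, 602 and 594 in p27-negative libraries, which is 2.17-fold lower (-1.12 ± 0.13, adjusted p = 9e-10). Its level was 1.06 ± 0.149 FPKM in p27-positive and 2.09 ± 0.0552 FPKM in p27-negative libraries, which depends on the length used. The build holds a near-identical copy of this gene on the same chromosome, so reads may be missing or shared and the count is uncertain. U2AF2, which binds the polypyrimidine tract, was read at 74.7 ± 0.448 FPKM in p27-positive and 89.8 ± 3.87 FPKM in p27-negative libraries and was lower by less (-0.40 ± 0.04, adjusted p = 8.3e-12). SF3B5, the smallest SF3B subunit, was at 0.02 ± 0.07 with overlapping groups and an adjusted p of 0.79. SF3B6, which contacts the branch point adenosine, was called lower (-0.18), but its adjusted p was 0.1 without p27-positive replicate 3 and 0.078 without p27-negative replicate 1, and its call was lost under the 4 other scalings.

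The PRPF genes encode proteins of the tri-snRNP and of the catalytic stages, and several are mutated in inherited retinal degeneration. Of the 13 genes, 12 were lower and PRPF40B was not called, with a median of -0.40. PRPF8 (chr17:1650629-1684867), the U5 protein that cradles the catalytic centre, had 12296, 12503 and 12534 normalized counts in p27-positive libraries, against 17045, 17078 and 17701 in p27-negative libraries. The groups were well apart (-0.47 ± 0.03, adjusted p = 1.3e-16). PRPF19, a ubiquitin ligase of the activated spliceosome, had 3017, 3071 and 3368 normalized counts in p27-positive libraries, against 4852, 4831 and 5152 in p27-negative libraries. It was 1.57-fold lower (-0.65 ± 0.05, adjusted p = 1.1e-14). PRPF38A, needed for activation of the assembled spliceosome, had 1552, 1559.8 and 1569 normalized counts in p27-positive libraries, against 2577, 2443 and 2380.1 in p27-negative libraries, at -0.66 ± 0.06 (adjusted p = 2.3e-12). PRPF4, a U4/U6 protein, had 1555, 1631 and 1548 normalized counts in p27-positive libraries, against 2609, 2210.0 and 2393 in p27-negative libraries, at -0.60 ± 0.06 (adjusted p = 1.2e-10). Its partners in the tri-snRNP were lower by less, with PRPF31 at -0.43, PRPF3 at -0.31 and PRPF6 at -0.27. PRPF38B (-0.40) and PRPF18 (-0.42) were also lower.

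Of the PRPF genes near the threshold, PRPF4B, a kinase of the tri-snRNP, was called lower (-0.15, adjusted p = 0.012), with an adjusted p of 0.068 without p27-negative replicate 3. Under quantile normalization it turned to 0.018. PRPF39, a U1-associated protein, was at -0.19 (adjusted p = 0.04). Its adjusted p was 0.082 without p27-positive replicate 1, 0.13 without p27-positive replicate 3 and 0.25 without p27-negative replicate 2, where the log2 fold change was -0.12. Both lost their call under the other 4 scalings and without the trended prior, and PRPF39 also with DESeq2 (adjusted p = 0.053) and with no filter. PRPF6 lost its call under quantile normalization and PRPF18 in the FPKM table.

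RBM stands for RNA binding motif, and these genes are a mixed set of splicing factors, export factors and regulators of translation. Of 31 genes, 29 were tested, with 5 higher, 18 lower and 6 not called, and a median of -0.32. RBM3 (chrX:48574449-48581162), the cold-inducible RNA-binding protein, had 7790.1, 7607 and 7933 normalized counts in p27-positive libraries, against 12966, 13197 and 12643 in p27-negative libraries. It was 1.66-fold lower (-0.73 ± 0.03, adjusted p = 4.3e-21). RBM12 had 3259, 3164 and 3227 normalized counts in p27-positive libraries, against 4728, 5201 and 4961 in p27-negative libraries, at -0.62 ± 0.05 (adjusted p = 1.2e-14), and CPNE1 overlaps it on the same strand. RBM17, also called SPF45, a U2-associated splicing factor, had 1972, 1838 and 1864 normalized counts in p27-positive libraries, against 2889, 3088 and 3043 in p27-negative libraries. It was 1.59-fold lower without overlap (-0.67 ± 0.06, adjusted p = 2.8e-13). RBM15, of the complex that methylates adenosines in mRNA, was at -0.89, and RBM22, a protein that contacts the catalytic RNA, at -0.48. RBM38, known as a p53 target, was lower at -0.32 ± 0.08 (adjusted p = 0.0014), and lost its call when scaled to the library total. The other lower genes were RBM28 (-0.49), RBM27 (-0.41), RBM19 (-0.40), RBM6 (-0.39), RBM14 (-0.39), RBM23 (-0.38), RBM26 (-0.35), RBM42 (-0.33), RBM10 (-0.31), RBM39 (-0.26), RBM25 (-0.22) and RBM44. RBM39 and RBM25 lost their calls under quantile normalization, and RBM25 also under the library total and in the FPKM table.

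RBM47, an epithelial RNA-binding protein described as a suppressor of breast cancer progression, was the clearest increase of the RBM genes. It had 2815, 2738 and 2799 normalized counts in p27-positive libraries, against 1744, 1547 and 1663 in p27-negative libraries, which is 1.69-fold higher (0.75 ± 0.06, adjusted p = 3.7e-14). RBM43 had 220.3, 149.6 and 156 normalized counts in p27-positive libraries, against 90.8, 74.6 and 68.5 in p27-negative libraries. That was the largest increase of any tested splicing gene (1.15 ± 0.24, adjusted p = 8.1e-05), at a low level. RBM5, a splicing regulator of apoptosis genes, had 1845, 1962 and 1853 normalized counts in p27-positive libraries, against 1529, 1489 and 1599 in p27-negative libraries, at 0.29 ± 0.06 (adjusted p = 0.00015). RBM6 lies next to RBM5 and overlaps it on the same strand, so reads could be shared between them. The FPKM ratio of RBM5 to RBM6 was 0.770, 0.784 and 0.794 in p27-positive libraries, against 0.473, 0.480 and 0.513 in p27-negative libraries.

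The other calls among low or overlapping RBM genes were less steady. RBM44 had 61.4, 25.9 and 87.7 normalized counts in p27-positive libraries, against 96.1, 106 and 106 in p27-negative libraries. The groups did not overlap (-0.97 ± 0.33, adjusted p = 0.014), but without p27-positive replicate 2 the log2 fold change was -0.48 and the adjusted p 0.19. The call was also lost in the FPKM table (-0.68, adjusted p = 0.26), with DESeq2 (adjusted p = 0.052) and without the trended prior. RBM41 was called higher at 0.20 ± 0.07, with adjusted p-values of 0.093 without p27-positive replicate 1, 0.076 without p27-positive replicate 3 and 0.062 without p27-negative replicate 2. RBM4, a splicing factor that could share reads with the RBM14-RBM4 readthrough gene, was called higher at 0.37 ± 0.16. Its adjusted p was 0.089 without p27-positive replicate 1, 0.21 without p27-positive replicate 2, 0.23 without p27-negative replicate 1, where the log2 fold change was 0.24, and 0.051 without p27-negative replicate 2. RBM4 also lost its call with DESeq2 (adjusted p = 0.06), with no filter, without the trended prior and under quantile normalization. The 6 genes not called, RBM7, RBM18, RBM33, RBM34, RBM45 and RBM48, lay between -0.28 for RBM48 and 0.62 for RBM34, whose standard error was 0.71.

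MBNL and CELF proteins often act against each other on the same exons, as known from myotonic dystrophy and from development of heart and muscle. Of the 5 tested genes, MBNL2 and CELF2 were higher, MBNL1 and CELF1 were lower and CELF5 was not called, so each family had 1 member in each direction. MBNL1 had 2208, 2102 and 2086 normalized counts in p27-positive libraries, against 3031, 3064 and 2699 in p27-negative libraries. It was 1.37-fold lower without overlap (-0.46 ± 0.06, adjusted p = 8.5e-09). MBNL2, its close paralogue, had 1758, 1694 and 1736 normalized counts in p27-positive libraries, against 1216, 1222 and 1264 in p27-negative libraries. It was 1.40-fold higher (0.49 ± 0.07, adjusted p = 5.7e-08). The FPKM ratio of MBNL2 to MBNL1 was 1.53, 1.55 and 1.60 in p27-positive libraries, against 0.770, 0.766 and 0.899 in p27-negative libraries. In FPKM, MBNL2 was thus the higher of the pair in p27-positive libraries and MBNL1 in p27-negative libraries. In normalized counts MBNL1 was the higher in both groups, so which paralogue was higher is not settled. CELF2 had 3068, 3031 and 3093 normalized counts in p27-positive libraries, against 2743, 2719.7 and 2538 in p27-negative libraries, a small difference of 0.20 ± 0.05 (adjusted p = 0.0013). CELF1 had 3690.3, 3539.8 and 3604 normalized counts in p27-positive libraries, against 4008, 3952 and 4175 in p27-negative libraries, at -0.16 ± 0.05 (adjusted p = 0.0033). CELF1 lost its call under the 4 other scalings and turned to 0.0048 under quantile normalization. CELF1 remained the higher of the pair in normalized counts and in FPKM. The FPKM ratio of CELF2 to CELF1 was 0.796, 0.820 and 0.821 in p27-positive libraries, against 0.655, 0.659 and 0.582 in p27-negative libraries. CELF5 had few reads, and its groups overlapped (0.79 ± 0.44, adjusted p = 0.13).

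**Figure D4:**
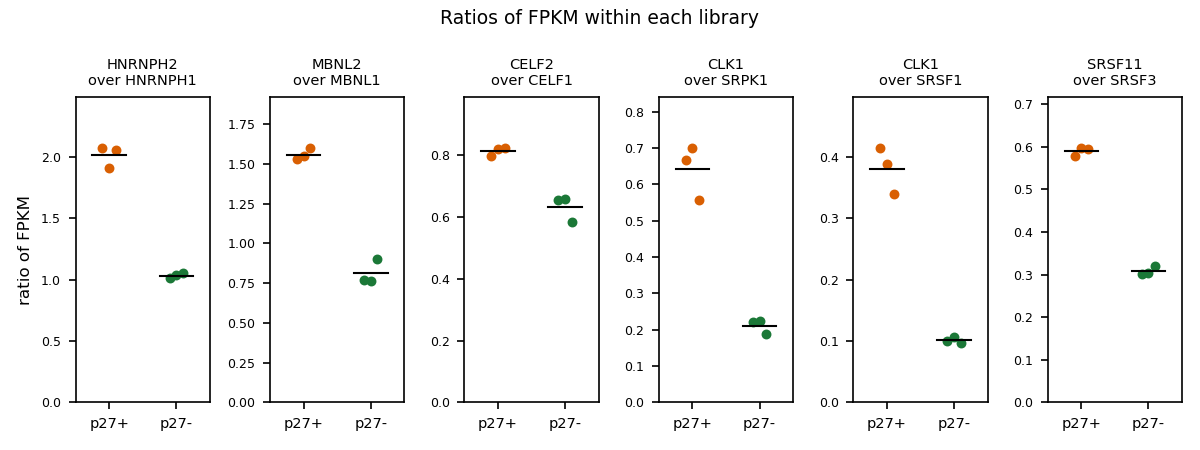
Ratio of FPKM between pairs of splicing genes within a library (y axis, from 0), 1 panel per pair, with each library as a point and the group mean as a line, p27-positive left and p27-negative right. HNRNPH2 over HNRNPH1 is 1.91 to 2.07 in p27-positive libraries and 1.01 to 1.05 in p27-negative libraries. The pairs were picked after the values were seen, so the gap between the groups is not a separate result.

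The 5 genes below the filter were read in few or no copies. RBM20, the splicing regulator of titin in heart muscle, had 12, 14 and 32 reads in p27-positive libraries and 0 in each p27-negative library. Against a floor of 3 reads over the p27-negative group, and after division by library depth, it was at least 16.9-fold higher, and without the filter limma gave an adjusted p of 6.4e-04. MBNL3 had 0, 0 and 1 reads in p27-positive libraries and 0, 17 and 11 in p27-negative libraries, with an adjusted p of 0.11 without the filter. HNRNPCL1 had 2, 2 and 7 reads in p27-positive libraries and 3, 2 and 8 in p27-negative libraries. RBM11 had 9, 1 and 3 reads in p27-positive libraries and 7, 1 and 0 in p27-negative libraries. CELF4 had 0, 0 and 4 reads in p27-positive libraries and 0, 0 and 7 in p27-negative libraries, so no difference was detectable at this depth for these 3. The floor covers counting error only.

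Splicing pathway genes that the name rule leaves out gave a second view of the same machinery in the same libraries. Of 163 tested genes in 7 lists, 7 were higher, 114 lower and 42 not called, with a median of -0.34. Among all tested genes 25.5% were higher and 27.1% lower, and among tested protein-coding genes 28.3% were higher and 33.2% lower. For strongly read protein-coding genes, split at 1000 as above, the shares were 23.7% higher and 52.9% lower. The 163 genes were not split by level in this way. Of the U1, U5 and tri-snRNP proteins, 12 of 17 were lower and none higher, with the smallest p-values for USP39 (-0.94 ± 0.06, adjusted p = 1.9e-16), DDX23 (-0.55), EFTUD2 (-0.40) and SNRNP200 (-0.30), the helicase that unwinds U4 from U6. SNRNP70, the U1 protein that holds the particle together, was at -0.10 ± 0.04 (adjusted p = 0.037), and its adjusted p was 0.061 to 0.2 without p27-positive replicate 1 or 2 or p27-negative replicate 1 or 3. Of the U2-associated proteins, 9 of 13 were lower and none higher, with the smallest p-values for U2SURP (-0.71), HTATSF1 (-0.71), DDX46 (-0.67) and PHF5A (-0.93), the small SF3B subunit that the name rule misses. Of the PRPF19 complex and catalytic-stage proteins, 22 of 32 were lower and none higher, with the smallest p-values for CDC5L (-0.74), PPIL1 (-0.77), BUD13 (-0.97) and CTNNBL1 (-0.54). Of 18 snRNP assembly factors, 15 were lower, among them STRAP (-0.60), GEMIN4 (-0.64), SART3 (-0.45) and PRMT5 (-0.62), which methylates Sm proteins, and GEMIN8 was higher (0.45 ± 0.10, adjusted p = 0.00026). SMN1 (-0.44) and SMN2 (-0.51) are near-identical copies, so the split of reads between them is uncertain. The adjusted p of SMN1 was 0.11 without p27-positive replicate 3 and 0.092 without p27-negative replicate 3, and that of SMN2 was 0.059 without p27-negative replicate 2.

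The exon junction and export list held the largest decrease of these lists, that of DDX39A. DDX39A, an export helicase, had 1447, 1498 and 1551 normalized counts in p27-positive libraries, against 3870.0, 3890.4 and 3953 in p27-negative libraries. It was 2.60-fold lower (-1.38 ± 0.06, adjusted p = 1.8e-23). ALYREF, the export adaptor, had 2698, 2584 and 2779 normalized counts in p27-positive libraries, against 5875, 5682 and 5794 in p27-negative libraries, at -1.11 ± 0.05 (adjusted p = 1.1e-22). DDX39B, the near-identical paralogue of DDX39A and also a U2AF2-binding splicing helicase, had 2013, 2205 and 2083 normalized counts in p27-positive libraries, against 1797, 1807 and 1739 in p27-negative libraries. It was higher in p27-positive cells (0.24 ± 0.06, adjusted p = 0.0011) and the only one of 23 genes in that list to be so, while 17 were lower, EIF4A3 (-0.73) and PNN (-0.67) among them. In the minor spliceosome, which removes a rare class of introns, ZRSR2, which reads its 3′ splice sites, had 1934, 2117 and 1844 normalized counts in p27-positive libraries, against 1164, 1204 and 1329 in p27-negative libraries. It was 1.59-fold higher (0.67 ± 0.07, adjusted p = 8.1e-11), and ARMC7 was also higher (0.36). SNRNP48 (-0.71), SNRNP25 (-0.67) and PDCD7 (-0.40), of the U11/U12 particle, were among the 6 of 11 that were lower. Of 49 other regulators, 33 were lower, with the smallest p-values for TRA2B (-0.86), PPP1CC (-0.70), PTBP1 (-0.56) and DAZAP1 (-0.77). KHDRBS3, which had the largest decrease of that list (adjusted p = 4.6e-06), had 145, 129.5 and 175 normalized counts in p27-positive libraries, against 307, 304 and 284 in p27-negative libraries. The 3 that were higher were SRRM3 (1.02 ± 0.17, adjusted p = 3.2e-06), an activator of neural microexons, RBFOX2 (0.11 ± 0.04, adjusted p = 0.021) and the kinase DYRK1B (1.09 ± 0.47, adjusted p = 0.048). RBFOX2 lost its call without p27-positive replicate 2 (adjusted p = 0.072), p27-negative replicate 2 (0.067) or p27-negative replicate 3 (0.077). DYRK1B lost it without p27-positive replicate 1 (0.072), 2 (0.19) or 3 (0.078) and without p27-negative replicate 1 (0.062) or 3 (0.17).

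Level per length and direction went together across the tested splicing genes. The Spearman correlation of mean FPKM with the log2 fold change was -0.47 over 120 genes, beside -0.38 over 12554 tested protein-coding genes. This is across genes of the same 6 libraries, which are not independent replicates, and is given as a description. In FPKM, which depends on the length used for each gene, HNRNPH2 stood apart among the 12 genes called higher. It had 93.2 ± 2.76 FPKM in p27-positive and 74.4 ± 0.453 FPKM in p27-negative libraries. RBM43, CLK3, CLK4, SRSF12 and RBM4 were all under 3 FPKM in both groups. In normalized counts the gap was smaller, with means of 4973 for HNRNPH2, 3064 for CELF2 and 1322 for CLK3 in p27-positive libraries. Reads shared between overlapping genes were a limit for some. Of the 60 tested splicing genes that overlap no other listed gene, 4 were higher and 47 lower. Of the 42 that overlap a gene on the opposite strand only, 4 were higher and 33 lower, and of the 18 with an overlap on the same strand, 4 were higher and 11 lower.

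**Figure D5:**
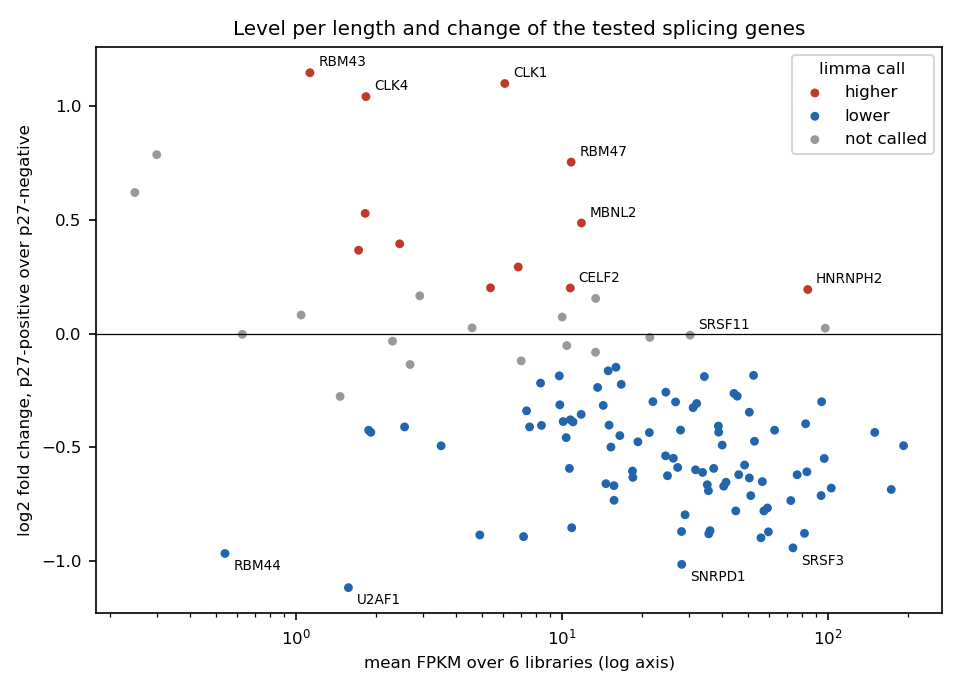
Mean FPKM over the 6 libraries (x axis, log scale) against the log2 fold change (y axis, p27-positive over p27-negative) of the 120 tested splicing genes, 1 point per gene, coloured by limma call, with selected genes named. Every gene above 20 FPKM lies below 0 except HNRNPH2, called higher, and SF3B5, not called, and CLK1, CLK4 and RBM43 stand near 1 at low levels.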

How the data were processed

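Poly(A) RNA of 3 p27-positive and 3 p27-negative CAL-51 libraries was prepared with a stranded kit, per the labels' protocols. The submitters' processing notes list STAR, featureCounts, DESeq2 and build hg38. Their versions and the strand setting of the counting are not given here. The deposited normalized count (a signal) is, per the file headers, a read count scaled by a DESeq2 size factor. FPKM values form the other deposited table, made by the authors. Dividing by the smallest step of each library turned 100% of the normalized counts into whole numbers (tolerance 1e-06), and these were used as reads.

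limma 3.58.1 (R 4.3.3) tested log2(normalized count + 1) of genes averaging at least 10 normalized counts, two-sided, with a trended prior and group as the only term. Adjustment was Benjamini-Hochberg over 15950 genes, and calls were made under 0.05. Unless another fit is named, adjusted p-values are limma's. The scale understates changes of low genes. Library values follow replicates 1 to 3. On the whole reads, edgeR 4.0.16 called 3983 genes higher and 4307 lower, and DESeq2 1.42.0 called 3974 higher and 4200 lower. Other alternatives were pseudocounts of 0.5 and 5, no filter or a minimum of 50, quantile, upper-quartile and library-total scaling, the FPKM table (log2(FPKM + 0.1), mean of at least 0.5), no trended prior, a replicate block and each library left out. "The 4 other scalings" are the quantile, upper-quartile and library-total scalings and the FPKM table. Only the main limma fit was tested on simulated data.

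The splicing genes, their roles and the other lists were chosen with earlier results of these data known. All libraries are given, per role, for up to 4 genes with the smallest p, the largest called changes and some genes fixed by name; HNRNPH1 and the FPKM ratios were added after values were seen. Of the other lists, up to 4 genes with the smallest p and those making up counts of 5 or fewer are named; SNRNP70, SMN1, SMN2 and KHDRBS3 were chosen after their values were seen. MATR3, listed in 2 rows, was not used, and the values of 1 splicing gene are not reported here. Promoters came from RefSeq and were matched by symbol.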

Additional observations from a re-analysis of the deposited data

How the results depend on the processing

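Of the 103 calls among splicing genes, 84 (9 higher and 75 lower) kept call and direction in all 18 alternatives. DESeq2 did not call LSM7, PRPF39, RBM44 and RBM4, and without the trended prior HNRNPA1L3, PRPF4B, RBM41 and CELF1 were also not called. The median log2 fold change of -0.42 was -0.41 with no filter, -0.31 under quantile normalization, -0.31 under upper-quartile rescaling, -0.29 under scaling to the library total and -0.29 in the FPKM table, where all genes moved up too except under quantile normalization. It stayed between -0.42 and -0.41 with each library left out, with 10 to 12 splicing genes higher and 88 to 90 lower. The pathway genes outside the name rule that were higher numbered 7, and 11 under quantile normalization, 12 under upper-quartile rescaling, 13 under scaling to the library total and 13 in the FPKM table. Under these 4 settings SRSF11, at -0.01 in the deposited scaling, was called higher at 0.17, 0.11, 0.12 and 0.12. PRPF4B turned to 0.018 and CELF1 to 0.0048 under quantile normalization, both no longer called. The cause was not tested. Same-numbered libraries showed no shared deviation from their group means, with correlations of -0.00051 to 0.011. This does not show whether they were prepared together. With the replicate number as a block, 12 splicing genes were higher and 91 lower. Depth limits the genes of few reads, such as RBM34, CELF5 and SNRPN, for which no difference was detectable.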

Other observations

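The tables also list 49 pseudogene rows named after 19 of the splicing genes. Of the 21 that passed the filter, none was called higher, 1 was called lower and 20 were not called by limma, with a median log2 fold change of -0.31. Over all tested genes 52.6% were called in either direction. Most of these rows hold few reads, so a missing call does not show equal levels. Their reads came to 0.875% to 1.03% of the reads of the parent genes in p27-positive libraries and 0.654% to 0.768% in p27-negative libraries. The 16 rows named after HNRNPA1 included 3 that were tested, and none of those was called.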
